A study of Mus musculus with 18 samples.

Results

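The principal cells of the hippocampus differ by subfield, and 9 genes were read here as marks of 2 of these cell types. *Prox1*, *Dsp*, *C1ql2*, *Calb1* and *Tdo2* stood for the granule cells of the dentate gyrus. *Wfs1*, *Pou3f1*, *Fibcd1* and *Mpped1* stood for the pyramidal cells of CA1. The genes were chosen by name, as rows of a table of 15329 genes, and all 9 were found with reads in each of the 18 libraries. Each library held hippocampal RNA of C57BL/6J mice, whose age is given as 8 to 10 weeks, and 3 libraries were made for each of 6 groups. The study's methods state that age for mice at the original learning task. Each stage was sampled in the wild type (WT) and in mice lacking *Ccny* (KO). WT_Basal and KO_Basal mice were untrained, WT_OL and KO_OL mice had gone through original learning, in which they find the hidden platform of a Morris water maze, and WT_RL and KO_RL mice had then also gone through reversal learning, with the platform moved. *Ccny* encodes cyclin Y, and the sources used here name no promoter or cell type that limits the knockout. Each library of a group came from a mouse of its own, as the study describes them.

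In the trisynaptic circuit, granule cells receive the cortical input and pass it by mossy fibres to CA3, and CA3 axons reach CA1, whose cells carry the output of the hippocampus. The 2 cell types keep distinct programmes of transcription through life, and bulk tissue with more dentate gyrus or more CA1 carries more of the one or the other. *Prox1* is a homeobox factor needed to form and keep granule cells, *Dsp* encodes desmoplakin of the desmosome, *C1ql2* a secreted synaptic protein of mossy fibres, *Calb1* the calcium buffer calbindin, and *Tdo2* an enzyme that opens the ring of tryptophan. *Wfs1* encodes wolframin of the endoplasmic reticulum, *Pou3f1* a POU-domain transcription factor, *Fibcd1* a membrane receptor with a fibrinogen-like domain and *Mpped1* a metallophosphoesterase. Of these, *Calb1* is the least specific, since part of the CA1 pyramidal cells and some interneurons make calbindin too. In bulk tissue, fewer cells of a type and less RNA per cell cannot be told apart.

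The promoters of 5 of the genes are shown, 3 because the genes moved together from mouse to mouse (*Prox1*, *Dsp*, *C1ql2*) and the others because *Tdo2* and *Fibcd1* passed the test after training. Each run covers 250 bases before and 50 bases after a RefSeq start on GRCm38.p6, in the direction of the gene. They lie at chr1:190170778-190171077 on the minus strand for *Prox1*, chr13:38151044-38151343 on the plus strand for *Dsp*, chr1:120340332-120340631 on the plus strand for *C1ql2*, chr3:81975679-81975978 on the minus strand for *Tdo2* and chr2:31845956-31846255 on the minus strand for *Fibcd1*. *Prox1* has a second RefSeq start, whose window at chr1:190169466-190169765 is not printed. Capitals mark the motifs TATAAA, the letters of a TATA box, TGACG as the core of the cyclic AMP response element, GCGNGGGCG for the EGR factors and TGANTCA for AP-1, each searched on both strands.
Prox1: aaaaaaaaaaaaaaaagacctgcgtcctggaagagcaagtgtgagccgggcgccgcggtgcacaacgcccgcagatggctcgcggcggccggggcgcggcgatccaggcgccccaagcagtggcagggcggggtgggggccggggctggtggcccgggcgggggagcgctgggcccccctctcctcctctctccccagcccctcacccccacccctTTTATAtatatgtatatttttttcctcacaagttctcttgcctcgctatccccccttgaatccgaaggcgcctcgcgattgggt
Dsp: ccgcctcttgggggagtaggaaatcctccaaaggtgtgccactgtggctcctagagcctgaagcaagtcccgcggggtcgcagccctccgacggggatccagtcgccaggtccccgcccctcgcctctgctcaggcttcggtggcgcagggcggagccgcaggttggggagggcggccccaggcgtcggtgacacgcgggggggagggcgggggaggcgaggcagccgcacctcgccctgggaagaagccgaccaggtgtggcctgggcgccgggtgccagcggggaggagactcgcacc
C1ql2: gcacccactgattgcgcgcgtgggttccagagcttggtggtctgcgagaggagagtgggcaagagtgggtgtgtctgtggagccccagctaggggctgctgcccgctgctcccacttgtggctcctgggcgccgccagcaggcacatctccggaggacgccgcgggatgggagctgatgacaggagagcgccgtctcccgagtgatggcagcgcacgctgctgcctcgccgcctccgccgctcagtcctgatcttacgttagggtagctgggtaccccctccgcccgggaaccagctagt
Tdo2: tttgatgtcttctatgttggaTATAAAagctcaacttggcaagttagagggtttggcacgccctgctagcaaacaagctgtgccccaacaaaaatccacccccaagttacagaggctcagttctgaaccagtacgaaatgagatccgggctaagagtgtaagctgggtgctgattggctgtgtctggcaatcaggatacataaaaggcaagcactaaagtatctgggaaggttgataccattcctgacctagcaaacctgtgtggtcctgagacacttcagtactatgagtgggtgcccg
Fibcd1: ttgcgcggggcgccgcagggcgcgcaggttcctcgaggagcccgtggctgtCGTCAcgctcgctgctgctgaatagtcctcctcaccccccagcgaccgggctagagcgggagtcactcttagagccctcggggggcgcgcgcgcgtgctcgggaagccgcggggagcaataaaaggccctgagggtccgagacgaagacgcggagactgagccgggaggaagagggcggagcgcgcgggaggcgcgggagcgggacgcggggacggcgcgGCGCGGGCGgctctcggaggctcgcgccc
The letters TATAAA were found in the printed windows of *Prox1* and *Tdo2*, against 13.6% of 32851 RefSeq promoters. In *Prox1* they lay 34 bases before the start on the opposite strand, so that they are printed as TTTATA. In *Tdo2* they lay 229 bases before the start in the direction of the gene. A TATA box acts close to the start, and a match elsewhere in the window is no more than the letters. The window of *Fibcd1* held 1 TGACG core and 1 EGR motif, which occurred in 20.8% and 5.55% of all promoters. No AP-1 motif (7.81% of promoters) and no full element TGACGTCA (1.79%), which contains the core, was found in these windows. The E-box CANNTG, the motif of basic helix-loop-helix factors, is not set in capitals. It occurred 2 times in the printed window of *Prox1*, once each in those of *Dsp* and *C1ql2* and not in the others, against 72.3% of promoters with at least 1. The second window of *Prox1* held none of these motifs and had 57.3% G and C. The share of G and C was 47.7% in the window of *Tdo2* and 64.3% to 74.3% in the other 4 printed. The 3 genes that moved together shared none of the capitalised motifs.

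All 9 genes were well covered. The listed genes took 29248557 to 37915576 reads in a library, and the fewest reads of a member in a library were 152, for *Tdo2*. Levels are given in CPM, the reads of a gene scaled to the size of its library, as recovered from the deposited log2(CPM + 1) values. The genotype was checked on *Ccny* itself, which lay at 74.0 to 95.8 CPM in the 9 KO libraries and at 107 to 158 CPM in the 9 WT libraries, with no overlap. These counts cover the whole gene and do not resolve a deleted part. Per kilobase of the longest transcript, *Mpped1* had the highest median level over libraries, 70.3 CPM per kilobase. *Wfs1* (35.3), *C1ql2* (35.1), *Fibcd1* (34.6) and *Calb1* (30.5 CPM per kilobase) followed close together. *Pou3f1* (9.89), *Prox1* (8.24), *Dsp* (6.71) and *Tdo2* (2.20 CPM per kilobase) were the lowest. Exons of *Prox1*, *Dsp* and *Pou3f1* overlap *Prox1os*, *Gm10129* and *Gm2164* on the other strand, and the counting is not stated to use strand, so reads of the 2 partners may not be told apart.

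The 9 genes varied more between mice of a group than most genes. The standard deviation (SD) of log2 values within groups was 0.46 for *Dsp*, 0.37 for *Prox1*, 0.32 for *Fibcd1* and 0.30 for *C1ql2*, and 0.21 to 0.27 for the other 5. The median over 11005 genes was 0.13, and 86.3% (*Calb1*) to 99.1% (*Dsp*) of those genes had a smaller SD than a member. WT_OL had the largest SD of the 6 groups for 7 of the 9 genes, from 0.32 (*Calb1*) to 0.89 (*Dsp*), and the smallest for the other 2, *Pou3f1* (0.057) and *Mpped1* (0.051).

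*Prox1* was nearly equal in the 3 WT_Basal mice, at 58.5, 58.4 and 57.9 CPM (replicates 1, 2 and 3, as in all lists of mice here). In WT_OL it was 45.1, 34.4 and 88.0 CPM, so that 1 mouse lay above and the other 2 below every untrained WT mouse. In WT_RL it was 75.8, 84.9 and 67.2 CPM, above every WT_Basal mouse. In the KO it was 51.8, 42.0 and 74.1 CPM untrained, 69.6, 49.7 and 69.4 CPM after original learning and 65.4, 64.9 and 90.5 CPM after reversal learning, and these 3 groups overlapped. The group means ran from 55.8 CPM in WT_OL through KO_Basal, WT_Basal, KO_OL and KO_RL to 76.0 CPM in WT_RL, and no neighbours in this order differed by more than the larger of their SDs on the log2 scale.

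*Dsp* followed the same order of groups with a wider range. It was 53.3, 61.9 and 53.2 CPM in WT_Basal and 39.7, 27.9 and 95.0 CPM in WT_OL. In WT_RL the 3 mice were close together, at 92.0, 94.3 and 98.1 CPM, and all lay above WT_Basal. In the KO it was 42.9, 41.8 and 66.8 CPM untrained, 76.8, 57.5 and 75.6 CPM after original learning and 68.0, 57.5 and 114 CPM after reversal learning. In both trained KO groups, 1 mouse or more lay below the highest KO_Basal mouse. Of neighbours in the order, WT_Basal and KO_OL alone differed by more than the larger SD.

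*C1ql2* was 61.5, 68.1 and 59.7 CPM in WT_Basal, 49.7, 47.8 and 86.7 CPM in WT_OL and 85.0, 106 and 64.5 CPM in WT_RL. The KO mice had 55.4, 63.7 and 84.7 CPM untrained, 92.0, 62.7 and 74.3 CPM after original learning and 72.3, 78.0 and 90.4 CPM after reversal learning. All these groups overlapped with the untrained mice of their genotype, and the group means lay between 61.4 CPM (WT_OL) and 85.1 CPM (WT_RL).

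*Calb1* and *Tdo2* were ordered otherwise, with the untrained groups at the top. *Calb1* was 135, 149 and 128 CPM in WT_Basal, 96.2, 89.6 and 136 CPM in WT_OL and 151, 133 and 107 CPM in WT_RL. In the KO it fell from 194, 136 and 177 CPM untrained to 127, 119 and 110 CPM after original learning, and it was 113, 113 and 129 CPM after reversal learning, with every trained KO mouse below every untrained one. *Tdo2* was 9.42, 10.5 and 8.28 CPM in WT_Basal, 6.20, 4.87 and 8.31 CPM in WT_OL and 7.77, 8.68 and 5.63 CPM in WT_RL. It was 8.27, 9.27 and 9.50 CPM in KO_Basal, 6.69, 5.47 and 5.47 CPM in KO_OL and 5.28, 4.64 and 7.34 CPM in KO_RL, again with no overlap between untrained and trained KO mice. Of the 12 trained mice of both genotypes, 10 had less *Tdo2* than every one of the 6 untrained mice, and 8 had less *Calb1*. Such a separation was not particular to these 2 genes. *Dsp* and *Wfs1* each had 8 trained mice above every untrained mouse, with 2 below for *Dsp* and 0 for *Wfs1*. *C1ql2* had 5 above and 2 below. No share over all genes is given for these counts.

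Among the CA1 genes, *Fibcd1* had the widest range. It was 161, 190 and 118 CPM in WT_Basal, 153, 107 and 190 CPM in WT_OL and 206, 128 and 165 CPM in WT_RL, 3 groups that overlapped. In the KO it rose from 103, 141 and 116 CPM untrained to 264, 195 and 181 CPM after original learning, and it was 164, 231 and 183 CPM after reversal learning, with all 6 trained KO mice above all untrained KO mice. *Wfs1* was 127, 123 and 135 CPM in WT_Basal, 168, 98.0 and 137 CPM in WT_OL and 117, 175 and 146 CPM in WT_RL. It was 91.4, 115 and 114 CPM in KO_Basal, below every WT_Basal mouse, and 150, 116 and 145 CPM in KO_OL and 132, 144 and 156 CPM in KO_RL, above every KO_Basal mouse.

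*Pou3f1* and *Mpped1* overlapped in all groups of a genotype. *Pou3f1* group means lay between 36.3 CPM (WT_OL) and 42.3 CPM (KO_RL), and the widest group was KO_Basal, at 22.3, 39.6 and 47.6 CPM. *Mpped1* had the narrowest range of the 9 genes over all libraries, 163 to 265 CPM or 1.62-fold, with group means from 203 CPM in WT_RL to 249 CPM in WT_OL. In WT_OL it was 253, 255 and 239 CPM, so the 3 mice that differed most in *Prox1* and *Dsp* were close in *Mpped1*.

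**Figure D1:**
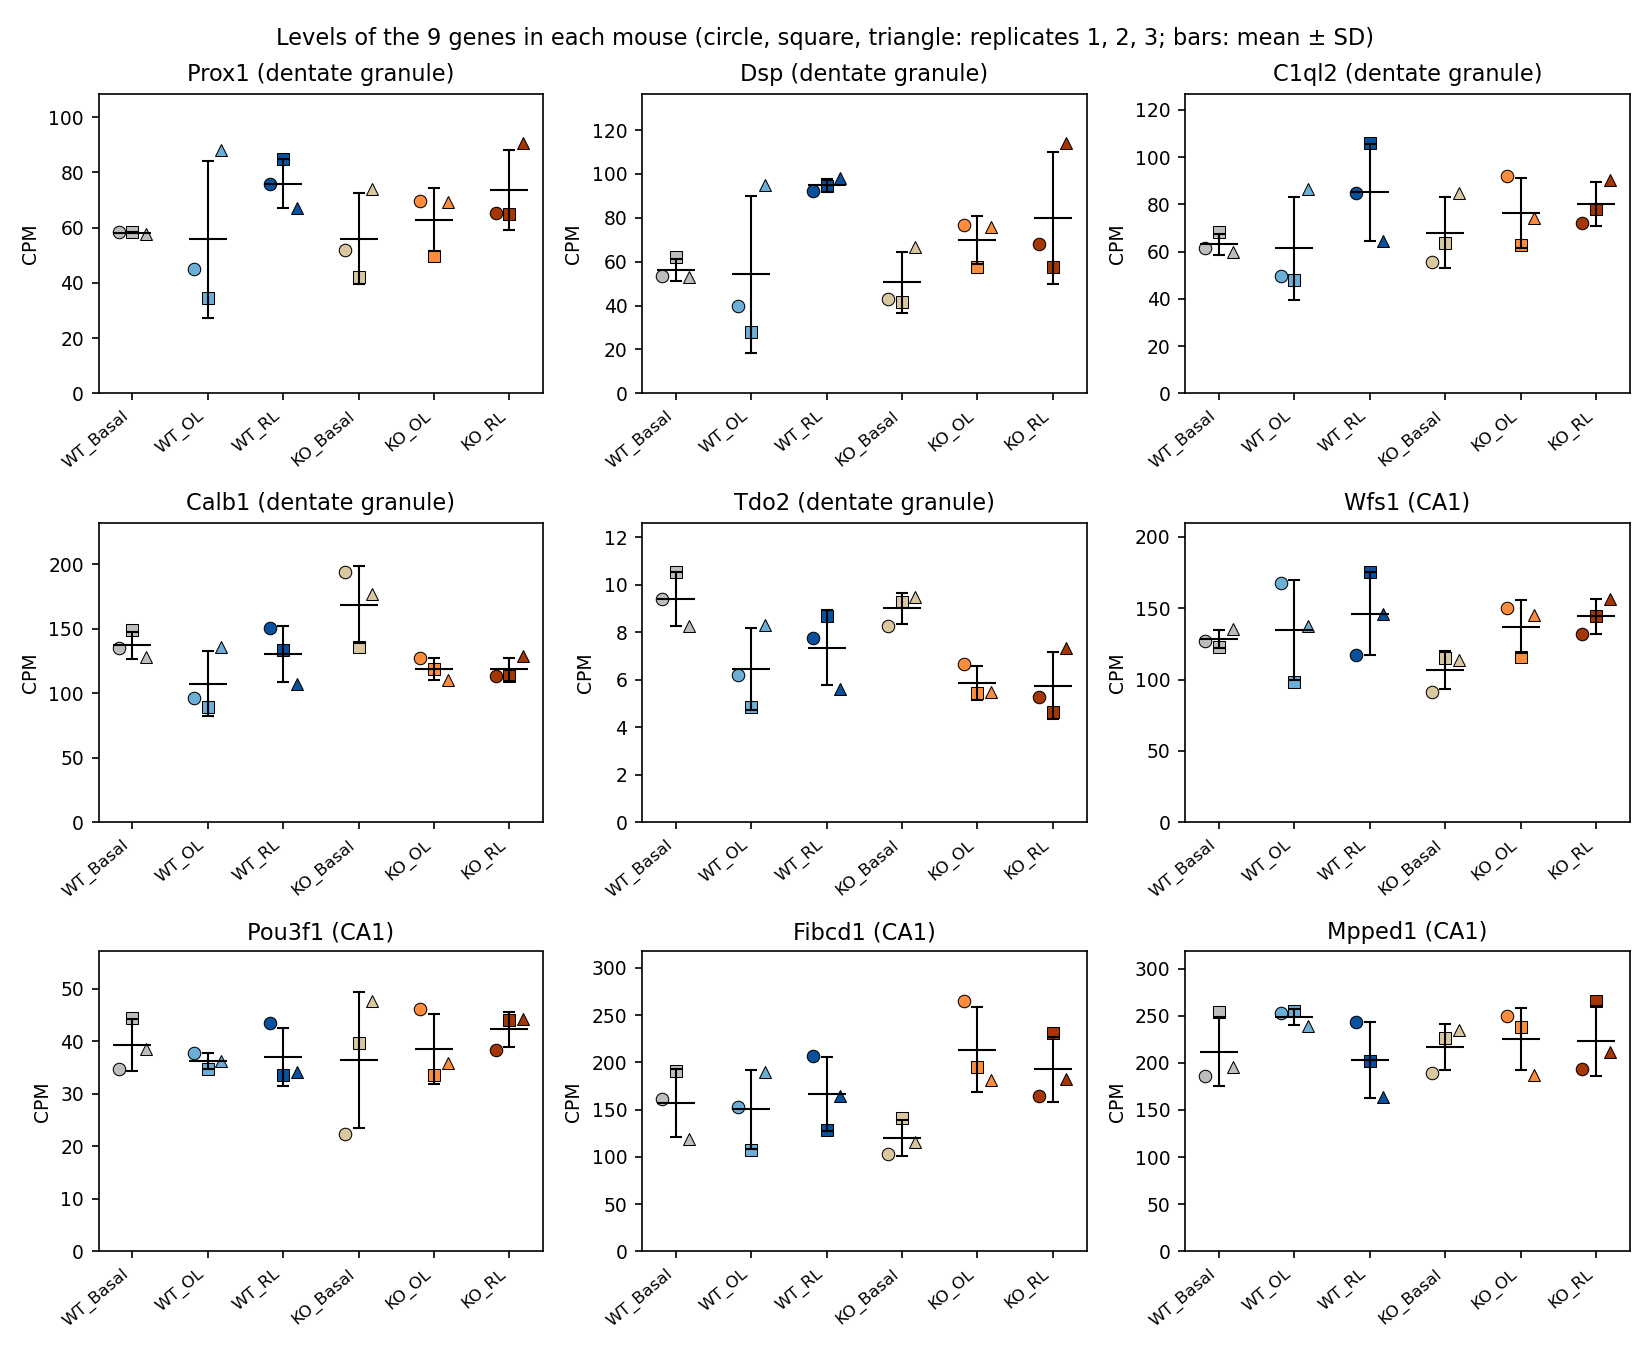
Level of each of the 9 genes in CPM (y axis, from 0) in the 3 mice of each of the 6 groups (x axis), with the mean ± SD as bars and a symbol for each replicate number. Replicate 3 of WT_OL lies above the other 2 mice of its group for the 5 dentate granule genes, and *Calb1* and *Tdo2* of the trained KO mice lie below those of KO_Basal.

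The comparison of trained with untrained mice asks what learning of the maze changes in the hippocampus. Differences were tested with limma on the log2 values, 1 fit over all 18 libraries, with Benjamini-Hochberg adjustment over all 15329 genes, and adjusted p-values under 0.05 were taken as calls. After original learning in the KO, *Calb1* and *Tdo2* fell and *Fibcd1* rose, 3 of 9 members, where 23.5% of all genes were called, 11.2% higher and 12.3% lower. *Calb1* fell by 0.49 in log2 units (with a standard error, SE, of 0.15 and limma adjusted p = 0.0308). *Tdo2* fell by 0.55 (SE 0.18, limma adjusted p = 0.035), and *Fibcd1* rose by 0.82 (SE 0.23, limma adjusted p = 0.0159). *Wfs1* did not overlap between the groups either and had a log2 fold change of 0.35 (SE 0.17, limma adjusted p = 0.142). With it, 4 of 9 members did not overlap between KO_OL and KO_Basal, 2 higher and 2 lower, against 48.8% of all genes, 24.2% higher and 24.6% lower. *Dsp* had a log2 fold change of 0.48 (SE 0.32, limma adjusted p = 0.298). The median log2 fold change was 0.17 over the 5 dentate granule genes, 0.24 over the 4 CA1 genes and -0.01 over all genes.

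After reversal learning in the KO the calls fell on the same 3 genes, with 23.6% of all genes called. *Calb1* fell by 0.49 (SE 0.15, limma adjusted p = 0.0302), *Tdo2* fell by 0.59 (SE 0.18, limma adjusted p = 0.0253) and *Fibcd1* rose by 0.68 (SE 0.23, limma adjusted p = 0.0403). The 2 comparisons share the KO_Basal mice. *Wfs1* had 0.44 (SE 0.17, limma adjusted p = 0.0734) and *Dsp* 0.62 (SE 0.32, limma adjusted p = 0.178), and 4 members did not overlap, against 45.3% of all genes. Between KO_RL and KO_OL no member was called, the log2 fold changes of all 9 were 0.22 or less in size, and 0.0196% of all genes were called. No member passed an unadjusted p of 0.05 there, against 4.81% of all genes. The smallest was 0.406 by limma.

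The calls in the KO rest on few mice. Leaving out 1 library at a time left 0 to 2 of the 3 calls in each of the comparisons, with *Calb1* between -0.64 and -0.38 and *Fibcd1* between 0.65 and 0.94 on the log2 scale after original learning. The share of all genes called in these fits was 14.5% to 19.1% for KO_OL and 13.6% to 21.0% for KO_RL. Without KO_Basal replicate 1, no member was called in KO_OL, and without KO_Basal replicate 3 or KO_RL replicate 2, none in KO_RL. Without KO_Basal replicate 3, KO_OL replicate 1, 2 or 3, and for KO_RL without KO_Basal replicate 1 or KO_RL replicate 1, 1 call was left. Markers of choroid plexus, which lies beside the hippocampus in the ventricle, moved with these comparisons. All 10 listed genes were called higher in KO_OL against KO_Basal and 9 of 10 in KO_RL. Their summed level was 226 to 1136 CPM in KO_Basal, 3631 to 6958 CPM in KO_OL and 2105 to 7689 CPM in KO_RL. In WT no gene of that list was called after training, and its sum lay at 1443 to 6451 CPM in WT_Basal and 215 to 12714 CPM in WT_RL. The part of choroid plexus RNA in the changes of *Calb1*, *Tdo2* and *Fibcd1* was not tested.

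In WT mice no member was called after original learning, where 9.50% of all genes were, and no member was free of overlap between WT_OL and WT_Basal (28.3% of genes were). *Tdo2* had the largest difference, a log2 fold change of -0.50 (SE 0.18, limma adjusted p = 0.0852), and *Calb1* had -0.37 (SE 0.15, limma adjusted p = 0.137). At an unadjusted p under 0.05 these were the 2 members of 9 to pass, where 25.9% of all genes passed. The median over the dentate granule genes was -0.24. These values depended on which WT_OL mouse was left out. Without replicate 3, *Calb1* fell by 0.56 (limma adjusted p = 0.0178) and *Tdo2* fell by 0.67 (limma adjusted p = 0.0199), 2 of 9 members, with 16.3% of all genes called in that fit. Without replicate 2 the log2 fold changes shrank, to -0.26 for *Calb1* and -0.34 for *Tdo2*.

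After reversal learning in WT no member was called either, against 15.7% of all genes, and *Dsp* alone had an unadjusted p under 0.05, against 30.3% of all genes. *Dsp* had a log2 fold change of 0.75 (SE 0.32, limma adjusted p = 0.129), *Prox1* 0.37 (SE 0.26, limma adjusted p = 0.37) and *Tdo2* -0.33 (SE 0.18, limma adjusted p = 0.226). *Dsp* and *Prox1* were the 2 members whose mice did not overlap between WT_RL and WT_Basal, against 34.3% of all genes. In a fit of these 2 groups alone, where 9.94% of all genes were called, both passed, at limma adjusted p = 0.00588 for *Dsp* and 0.0421 for *Prox1*. The WT_OL and KO mice did not enter the estimate of the spread in that fit. *Prox1* had its smallest SD of the 6 groups in WT_Basal, 0.008 on the log2 scale over 3 mice. Why the 2 genes passed in that fit alone was not tested.

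WT_RL against WT_OL, the step from original to reversal learning, gave no call among the members and 0.261% of all genes, with *Dsp* and *C1ql2* at an unadjusted p under 0.05, as 16.4% of all genes were. *Dsp* had 0.99 (SE 0.32, limma adjusted p = 0.19), *Prox1* 0.54 (SE 0.26, limma adjusted p = 0.312) and *C1ql2* 0.49 (SE 0.22, limma adjusted p = 0.283) on the log2 scale. These too depended on which WT_OL mouse was left out. Without replicate 3 *Dsp* rose by 1.48 (limma adjusted p = 0.00544), *Prox1* by 0.92 (limma adjusted p = 0.0151) and *C1ql2* by 0.76 (limma adjusted p = 0.0222), and *Calb1* was called as well, 4 of 9 members, where the share of all genes called in that fit was 13.3%. Without replicate 2 the log2 fold changes shrank, to 0.62 for *Dsp* and 0.26 for *Prox1*.

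With both genotypes averaged, a contrast chosen after the values were seen, *Calb1* and *Tdo2* were lower after either kind of training on the deposited values, though not with a correction for GC content, given at the end of the paragraph. Original learning against untrained mice gave -0.43 for *Calb1* (SE 0.11, limma adjusted p = 0.00715) and -0.52 for *Tdo2* (SE 0.13, limma adjusted p = 0.00505), 2 of 9 members, where 28.6% of all genes were called and 15.3% were lower. Reversal learning against untrained mice gave -0.29 for *Calb1* (SE 0.11, limma adjusted p = 0.0492), -0.46 for *Tdo2* (SE 0.13, limma adjusted p = 0.00947) and 0.68 for *Dsp* (SE 0.23, limma adjusted p = 0.0285), 3 of 9 members against 35.4% of all genes. The 2 calls after original learning and that of *Tdo2* after reversal learning held without any 1 of the 12 libraries. The call of *Calb1* after reversal learning held without WT_RL replicate 1 or KO_Basal replicate 2 and was lost without any 1 of the other 10, and that of *Dsp* held in 7 of 12. With correction of each library for its trend on GC content, described next, *Calb1* had -0.046 after original learning (limma adjusted p = 0.83) and 0.079 after reversal learning (limma adjusted p = 0.639). *Tdo2* then had -0.24 (limma adjusted p = 0.228) and -0.20 (limma adjusted p = 0.27), so none of these 4 calls was left.

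**Figure D2:**
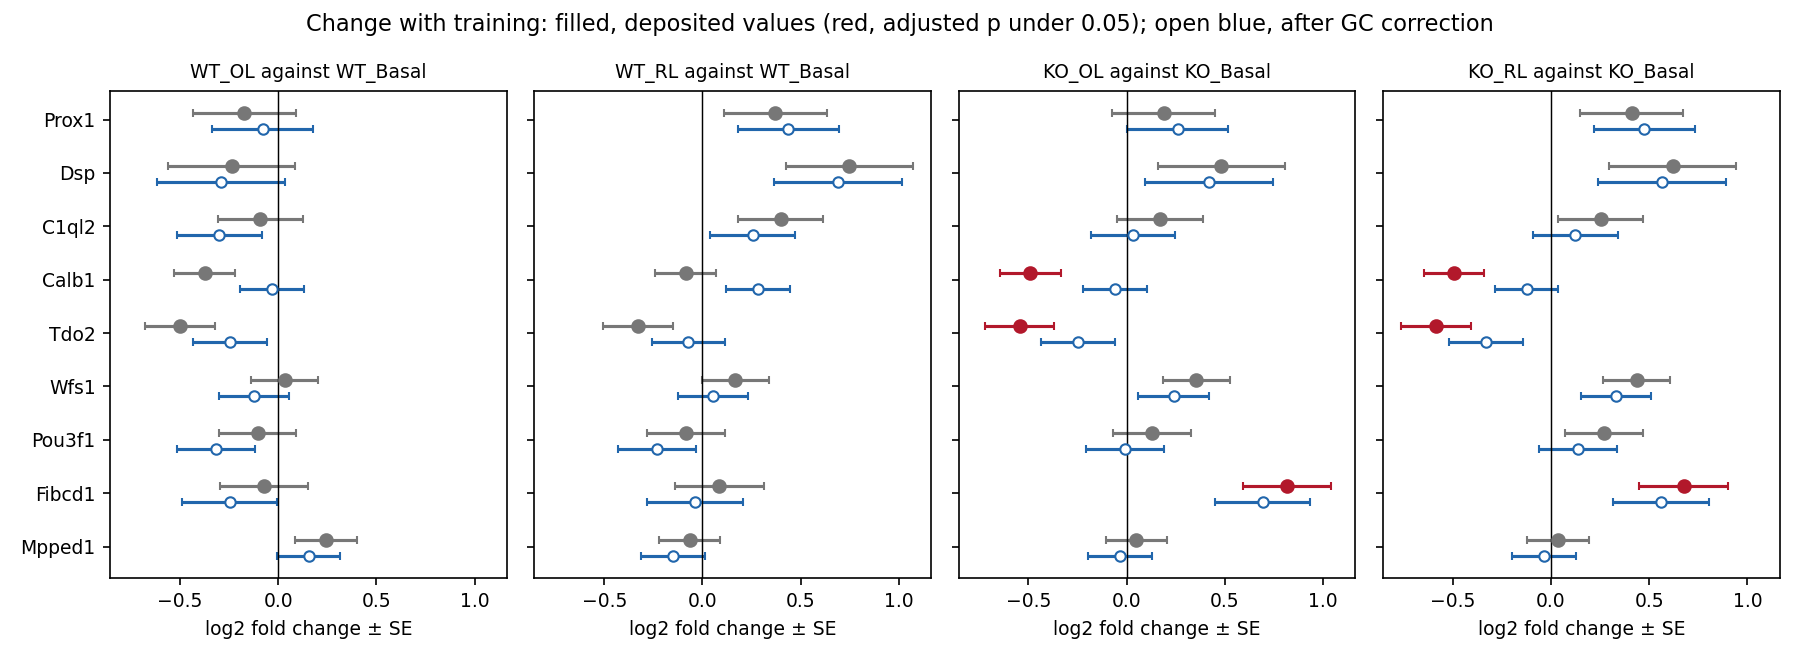
Log2 fold change with its SE (x axis) of each gene (y axis) for the 4 comparisons of trained with untrained mice, from the deposited values (filled, red where the limma adjusted p was under 0.05) and after correction for GC content (open). *Calb1* moves from -0.49 to -0.06 in KO_OL with the correction and *Fibcd1* from 0.82 to 0.69.

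Training also moved with GC content, the share of G and C in a transcript. The slope of a library's log2 values on GC content lay between -0.18 and -0.11 per 10 points of GC in the 6 untrained mice and between -0.01 and 0.21 in the 12 trained mice, with no overlap. Relative to the other genes, those of low GC were therefore lower in trained mice. *Calb1*, at 36.8% GC, and *Tdo2*, at 39.6%, had the lowest GC content of the 9 members, and 0.979% and 4.80% of all genes lay below them. *Prox1* had 45.3%, *Dsp* 51.8%, *Mpped1* 53.7%, *Wfs1* 57.8%, *Fibcd1* 59.4%, *C1ql2* 63.4% and *Pou3f1* 63.9%, with a median of 49.8% over all genes.

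When each library was corrected for its trend on GC content, no member was called in any comparison, with no block for the replicate number. In KO_OL against KO_Basal, the log2 fold change was then -0.06 for *Calb1* (limma adjusted p = 0.838), -0.25 for *Tdo2* (limma adjusted p = 0.383) and 0.69 for *Fibcd1* (limma adjusted p = 0.0636). In KO_RL they were -0.12, -0.33 and 0.56, with limma adjusted p-values of 0.623, 0.227 and 0.118. *Dsp* after reversal learning with genotypes averaged was 0.63 (limma adjusted p = 0.0505). The correction still left 2324 genes called in KO_OL and 2706 in KO_RL. As the slopes of trained and untrained mice do not overlap, training and the GC trend cannot be told apart in these libraries.

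**Figure D3:**
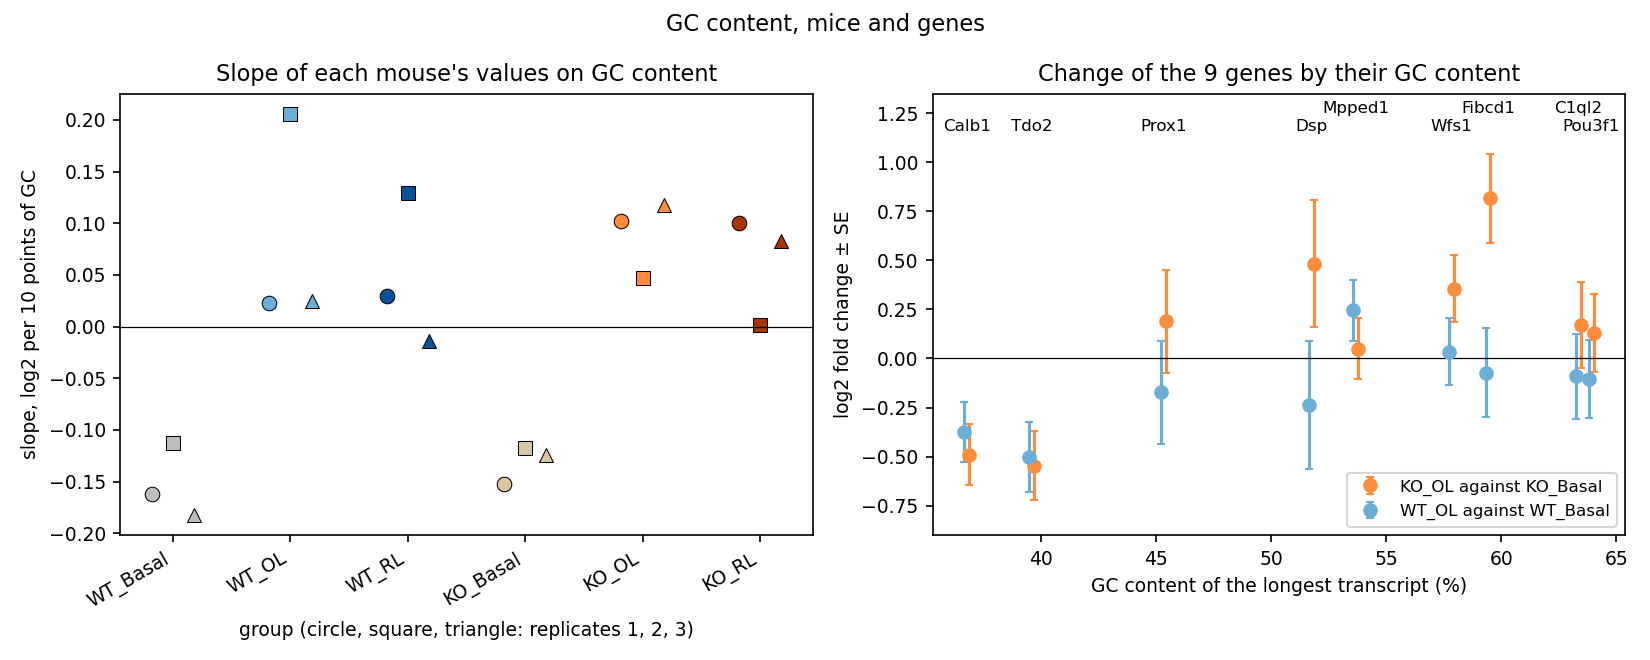
Left, slope of log2 values on GC content for each mouse (log2 per 10 points of GC) by group. Right, log2 fold change with SE after original learning of the 9 genes against the GC content of their longest transcript, for KO and WT. The 6 untrained mice have slopes of -0.18 to -0.11 and the 12 trained mice slopes of -0.01 to 0.21, and the 2 genes of lowest GC, *Calb1* and *Tdo2*, have the lowest fold changes in both genotypes.

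Between the genotypes, which asks what loss of *Ccny* does at each stage, no member was called. KO_Basal against WT_Basal gave 0 of 9 members by limma, 0 at an unadjusted p under 0.05 (613 of 15329 genes passed it), and 0.0196% of all genes called, and *Fibcd1* had the largest log2 fold change, -0.37 (SE 0.23, limma adjusted p = 0.994). *Wfs1*, at -0.27 (SE 0.17, limma adjusted p = 0.994), was the 1 member without overlap, against 14.7% of all genes. KO_OL against WT_OL gave 0 of 9 members and 0.0652% of all genes, with *Dsp* at 0.54 (SE 0.32, limma adjusted p = 0.375), *Fibcd1* at 0.52 (SE 0.23, limma adjusted p = 0.245) and *C1ql2* at 0.35 (SE 0.22, limma adjusted p = 0.397). Without WT_OL replicate 3, *Dsp* was 1.04 higher (limma adjusted p = 0.0143) and *C1ql2* 0.62 higher (limma adjusted p = 0.0427) in KO_OL, and *Prox1* was the third member called, 3 of 9 where 16.5% of all genes were called. With WT_OL replicate 2 left out instead, *Dsp* was 0.17 and *C1ql2* 0.20 higher in KO_OL. KO_RL against WT_RL gave 0 of 9 members and none of the genes, with a largest member difference of -0.31, for *Tdo2* and *Dsp*, and 0 members at an unadjusted p under 0.05, against 4.93% of all genes. Voom on the recovered reads called 0 members in each comparison of the genotypes and of WT groups as well.

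The change with training was not shown to differ between the genotypes for any member. In the 3 tests of that difference (original learning, reversal after original learning, and reversal learning against untrained), 0 of 9 members and 0% of all genes were called. The largest values for original learning were 0.89 for *Fibcd1* (SE 0.32, limma adjusted p = 0.388), the sole member with an unadjusted p under 0.05 in the 3 tests, and 0.72 for *Dsp* (SE 0.46, limma adjusted p = 0.466). The value of *Dsp* became 1.21 without WT_OL replicate 3 (limma adjusted p = 0.0447, with 5.92% of all genes called in that fit) and 0.35 without WT_OL replicate 2. An unadjusted p under 0.05 was held by 12.4%, 7.98% and 4.99% of all genes in the 3 tests. So the calls in KO and their lack in WT, for *Calb1* and *Tdo2*, came with differences between the genotypes of -0.12 (SE 0.22) and -0.04 (SE 0.25).

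Within groups, the dentate granule genes went up and down together from mouse to mouse. With group means removed, Pearson correlations over the 18 libraries lay between 0.64 and 0.94 for the 10 pairs of dentate granule genes (median 0.74), between -0.11 and 0.64 for the 6 pairs of CA1 genes (median 0.39) and between -0.11 and 0.49 for the 20 pairs across the subfields (median 0.32). By exact permutation within groups, adjusted over the 36 pairs, 6 dentate pairs, 1 CA1 pair and no pair across passed. *Prox1* and *Dsp* had r = 0.94 and Spearman's rho = 0.88 (exact permutation adjusted p = 0.0324 and 0.0301, n = 18), *C1ql2* and *Tdo2* r = 0.83 and rho = 0.87 (exact permutation adjusted p = 0.00617 and 0.00309, n = 18). Without the 2 libraries farthest from the median of the gene named before the other, r was 0.85 and 0.76. The CA1 pair was *Pou3f1* and *Mpped1*, with r = 0.64 and rho = 0.68 (exact permutation adjusted p = 0.0324 and 0.0858, n = 18). Much of the dentate spread lay in WT_OL, and without that group the 10 dentate pairs had r between 0.31 and 0.84, median 0.58, the CA1 pairs between -0.19 and 0.67, median 0.44, and the pairs across between -0.34 and 0.63, median 0.34. Without the 2 libraries farthest from the median in each pair, the medians were 0.60 for dentate pairs, 0.58 for CA1 pairs and 0.36 across, with a highest value of 0.71 across. With those libraries left out, the medians of dentate and CA1 pairs were close.

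Over all libraries with the group means left in, 4 of the 10 dentate pairs passed by permutation (100000 draws) and no other pair did. They were the 3 pairs among *Prox1*, *Dsp* and *C1ql2*, with r of 0.83 to 0.94 (permutation adjusted p = 0.00018 to 0.00048, n = 18), and *Calb1* with *Tdo2*, with r = 0.76 and rho = 0.79 (permutation adjusted p = 0.00135 and 0.00153, n = 18). The smallest p the draws can give is 1e-05. The 6 pairs between these 2 sets had r of 0.13 to 0.34, against 0.64 to 0.83 with group means removed. The 2 sets thus varied alike within groups and stood in a different order between groups.

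**Figure D4:**
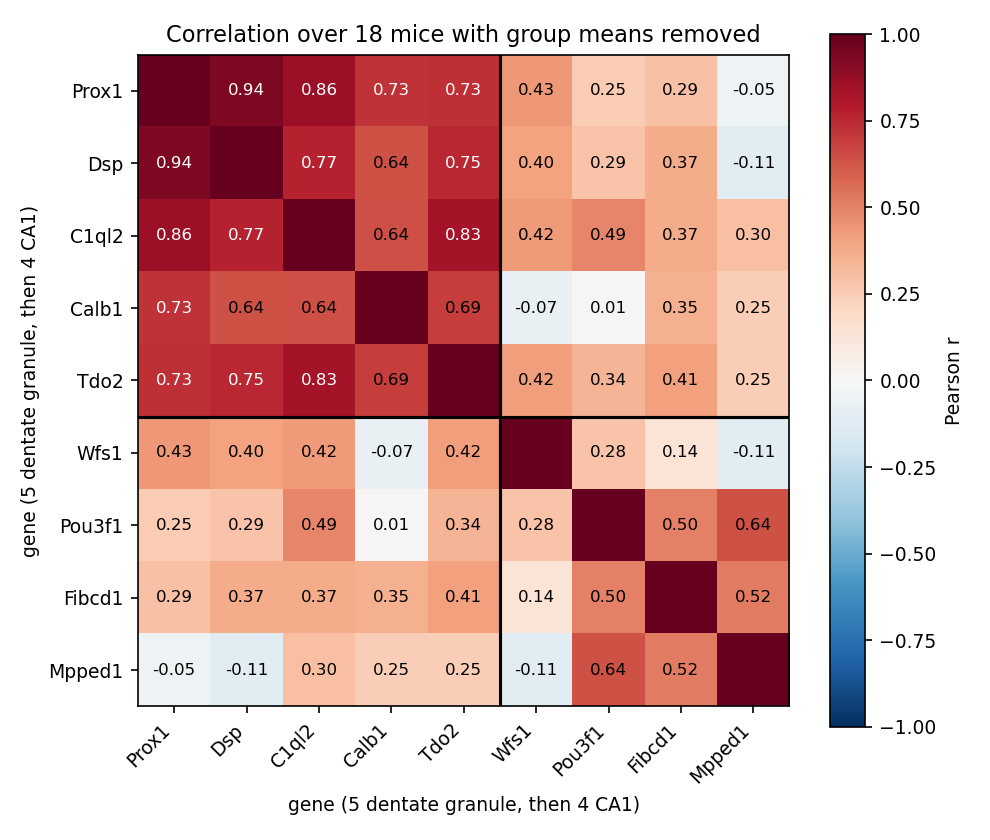
Pearson correlation of each pair of the 9 genes over 18 mice after removal of group means, with dentate granule genes before the line and CA1 genes after it on both axes. The block of dentate granule genes holds values of 0.64 to 0.94, and the values across the subfields reach 0.49.

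The values behind this order are the mean log2 level of *Calb1* and *Tdo2* minus that of *Prox1*, *Dsp* and *C1ql2* in each mouse. The sets were formed from the correlations and the order of groups in these same 18 libraries, so the difference restates that observation and adds no evidence to it. It was -0.64, -0.62 and -0.74 in WT_Basal and -0.26, -0.39 and -0.81 in KO_Basal. In the trained KO mice it was -1.35, -1.04 and -1.47 after original and -1.38, -1.41 and -1.58 after reversal learning, and in WT_RL it was -1.22, -1.41 and -1.51. All these 9 trained mice lay below all 6 untrained mice. In WT_OL, replicate 3 was among them with -1.35, and replicates 1 and 2, at -0.79 and -0.68, lay in the range of the untrained mice. No p is given for such scores, and the GC trend above touches them, since *Calb1* and *Tdo2* have the lowest GC content.

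For the balance of the subfields, each gene was taken as its deviation from its own mean over the 18 libraries, and the mean deviation of the CA1 genes was subtracted from that of the dentate granule genes. It ran from -0.56 in WT_OL replicate 1 to 0.45 in KO_Basal replicate 1. WT_Basal was the most even group, at 0.08, -0.04 and 0.06. WT_OL had -0.56, -0.48 and 0.24, WT_RL had 0.15, 0.43 and 0.11, KO_Basal 0.45, -0.10 and 0.35, KO_OL -0.20, -0.22 and -0.01, and KO_RL -0.04, -0.41 and 0.20. The group means ± SD (n = 3) were 0.03 ± 0.06 for WT_Basal, -0.27 ± 0.44 for WT_OL, 0.23 ± 0.18 for WT_RL, 0.23 ± 0.29 for KO_Basal, -0.15 ± 0.11 for KO_OL and -0.08 ± 0.31 for KO_RL. The SDs of WT_OL, KO_Basal and KO_RL were wider than the gap between any neighbours in the order of the means. Over all 18 libraries the dentate granule genes made more of it than the CA1 genes, with deviations of -0.70 to 0.38 against -0.53 to 0.34. The means of the KO groups went the other way. In KO_Basal, KO_OL and KO_RL they were 0.01, -0.03 and 0.05 for the dentate granule genes and -0.22, 0.12 and 0.14 for the CA1 genes. The highest balance, in KO_Basal replicate 1, came with -0.07 for the dentate granule genes and -0.53 for the CA1 genes. The GC trend, which cannot be told apart from training here, touches this balance too. The dentate granule genes had 36.8% to 63.4% GC and the CA1 genes 53.7% to 63.9%.

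**Figure D5:**
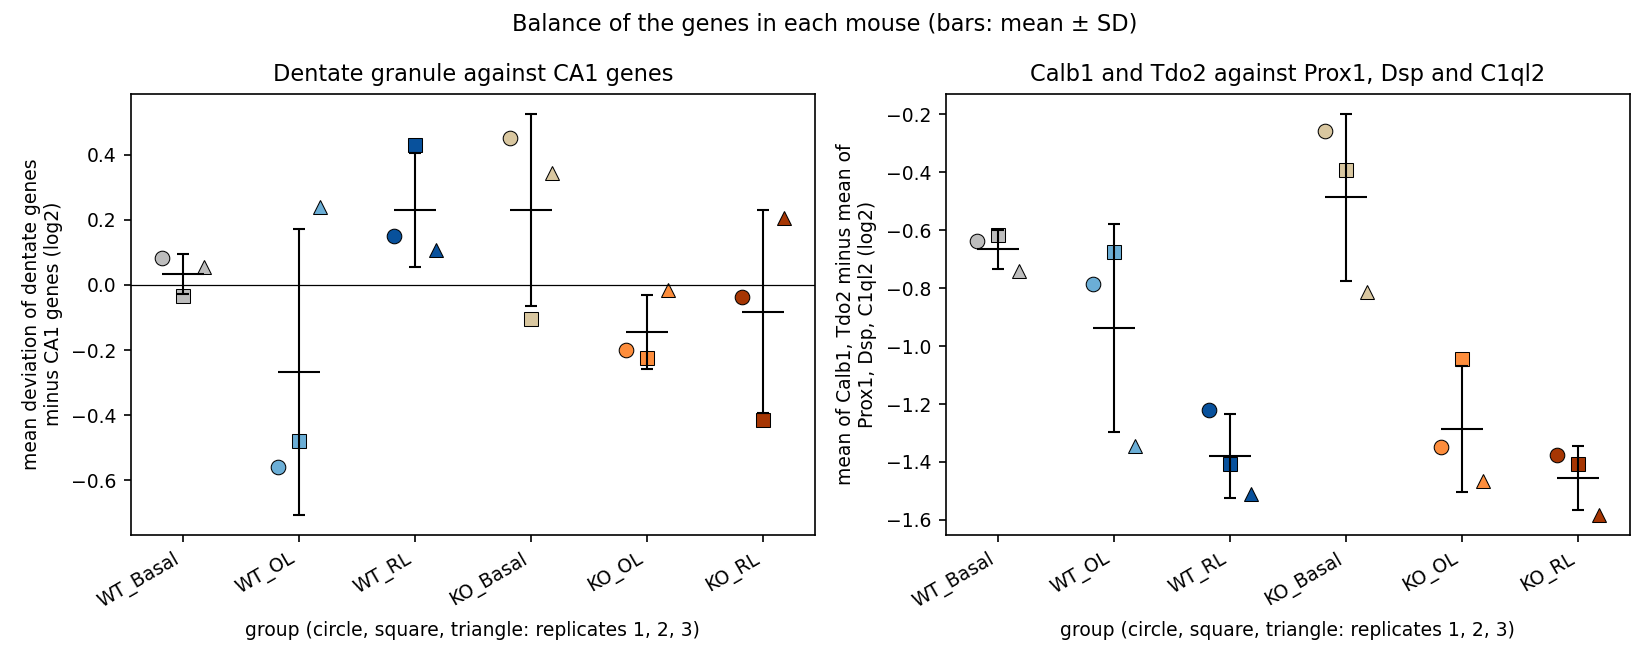
Left, mean deviation of the 5 dentate granule genes minus that of the 4 CA1 genes in each mouse (log2). Right, mean log2 level of *Calb1* and *Tdo2* minus that of *Prox1*, *Dsp* and *C1ql2* in each mouse. Bars show mean ± SD of 3 mice. On the left WT_OL spans -0.56 to 0.24, and on the right WT_OL replicate 3 lies with the other trained mice at -1.35.

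WT_OL replicate 2 held the lowest level of *Prox1*, *Dsp*, *C1ql2* and *Calb1* of all 18 libraries. It also stood apart in technical measures. Its GC slope was the highest, 0.21, and its slope on transcript length was the lowest of all libraries, -0.22 log2 units per doubling against -0.09 to 0.14 in the others. Replicate 1 of WT_OL, with the same low dentate granule genes, had slopes of 0.02 on GC and -0.03 on length. In the study's mapping statistics, replicates 1 and 2 of WT_OL had the lowest mapping rates of the trained libraries. These rates lay in or just above the range of the untrained libraries. All other trained libraries, WT_OL replicate 3 among them, had higher rates. The part of these trends and mapping rates in the levels of the 2 mice was not tested.

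The genes most like each member, by correlation with group means removed over the 18 libraries among 15328 other genes, were mostly not members. For *Prox1* they were *Neurod1*, a helix-loop-helix factor of young granule neurons (r = 0.96), *Mcm6*, a subunit of the replicative helicase (0.95), and *Map3k4*, a kinase (0.94), and *Dsp* came sixth. For *Dsp* they were *Plekha2* (0.97), *Kdm4a* (0.95) and *Sertad4* (0.95), with *Prox1* at rank 8. For *C1ql2* they were *Grm2*, a glutamate receptor of mossy fibres (0.95), *Islr2* (0.94) and *Ehd1* (0.94). For *Calb1* they were *Lrrtm4*, a synaptic adhesion protein (0.92), *C2cd2l* (0.92) and *C1ql3*, a relative of *C1ql2* (0.89). For *Tdo2* they were *Arsj* (0.92), *Rpa1* (0.92) and *Pde8b* (0.91).

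For the CA1 genes the closest matches were not members either. *Fibcd1* went with *6330403A02Rik* (0.95), *Lpl*, lipoprotein lipase (0.95), and *Rnf146* (0.95). *Mpped1* went with *St8sia5*, a sialyltransferase (0.95), *Glt8d2* (0.91) and *Extl1* (0.90), and *Pou3f1* with *Lipc* (0.94), *Sun1* (0.90) and *Kcns3* (0.86). *Lipc* had a median of 0.515 CPM, near the floor of the scale. *Wfs1* had the lowest best match of the 9, *Pcdhb20* (0.87), followed by *Cidea* (0.80) and *Snx24* (0.77). Such values are the highest of many and carry no p.

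Further markers of both cell types moved in part. The calls of markers here and in the next 2 paragraphs are from the deposited values, and none is given with GC correction. As a background for them, 3.88% of all genes rose and 5.62% fell in WT_OL, and 8.28% rose and 7.42% fell in WT_RL. In KO_OL 11.2% rose and 12.3% fell. In KO_RL 11.6% rose, of 23.6% called in either direction. Of 12 other granule cell markers, none was called in WT_OL, 2 rose in WT_RL, 1 in KO_OL and 2 in KO_RL against untrained mice, and none fell. *Il16*, a cytokine precursor, rose by 0.55 in WT_RL (SE 0.15, limma adjusted p = 0.0219), by 0.67 in KO_OL (SE 0.15, limma adjusted p = 0.00457) and by 0.68 in KO_RL (SE 0.15, limma adjusted p = 0.00402). *Maml2*, a coactivator of Notch, rose by 0.73 in WT_RL (SE 0.17, limma adjusted p = 0.00963), and *Smad3*, which carries TGF-beta signals, by 0.54 in KO_RL (SE 0.14, limma adjusted p = 0.00931). The medians of the 12 genes were -0.07, 0.25, 0.12 and 0.20 in WT_OL, WT_RL, KO_OL and KO_RL. Their summed level spanned 491 to 871 CPM in WT_OL and 839 to 862 CPM in WT_RL.

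Of 10 other CA1 markers, *Zdhhc2*, a palmitoyltransferase, fell in all 4 comparisons with untrained mice, by 0.51 in WT_OL (SE 0.10, limma adjusted p = 0.0063) and by 0.57 in KO_OL (SE 0.10, limma adjusted p = 0.00114), for example. In KO_RL *Gpr161* rose by 0.88 (SE 0.23, limma adjusted p = 0.0105) and *Nov* fell by 0.86 (SE 0.27, limma adjusted p = 0.0282). No other gene of that list was called, and its medians lay between -0.20 and -0.01. So CA1 markers were called in both directions, as *Fibcd1* rose in the same KO mice.

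Markers of neighbouring cell types give the setting. Of 10 CA3 genes none was called in WT_OL, 2 rose in WT_RL, 3 in KO_OL and 4 in KO_RL, among them *Grik4*, a kainate receptor subunit, by 0.53 in KO_OL (SE 0.14, limma adjusted p = 0.0112), and none fell. Of 6 genes of immature granule neurons, none rose, none fell in WT_OL and 1 fell in each of the other 3 groups, with list medians of 0.09 in WT_OL, -0.09 in WT_RL, 0.22 in KO_OL and 0.08 in KO_RL. *Neurod1* fell by 0.56 in KO_OL (SE 0.19, limma adjusted p = 0.0414) and by 0.57 in KO_RL (SE 0.19, limma adjusted p = 0.0383), and *Dcx* fell by 0.59 in WT_RL (SE 0.18, limma adjusted p = 0.0374). In the other direction, *Sox11* had 0.39 in KO_OL (limma adjusted p = 0.174) and 0.50 in KO_RL (limma adjusted p = 0.0777), and *Draxin*, *Igfbpl1* and *Eomes* had 0.29, 0.27 and 0.18 in KO_OL. Of 15 activity-induced genes, 10 rose in WT_OL, 6 in WT_RL, 7 in KO_OL and 6 in KO_RL, and none fell. Of 6 pan-neuronal genes 1 rose in WT_OL, 1 in WT_RL and 1 in KO_OL, and 1 fell in KO_OL and 1 in KO_RL. Genes of other tissue beside the hippocampus differed between mice. Neocortical markers summed to 75.1 to 79.7 CPM in WT_Basal and 92.0 to 125 CPM in WT_OL, and 2 of 6 rose there, *Cux2* by 0.90 (SE 0.19, limma adjusted p = 0.00921) and *Rorb* by 0.45 (SE 0.12, limma adjusted p = 0.0321). Markers of thalamus and habenula summed to 82.2 to 99.7 CPM in WT_Basal and 108 to 201 CPM in WT_RL, and 2 of 7 rose there, *Slc17a6* by 1.32 (SE 0.38, limma adjusted p = 0.0285) and *Lef1* by 0.69 (SE 0.20, limma adjusted p = 0.0263). No gene of the 2 lists was called in the other comparisons of trained with untrained mice of a genotype. Of 6 markers of the ventral hippocampus none rose, *Trpc6* fell by 0.58 in WT_OL (SE 0.16, limma adjusted p = 0.0368), *Grp* fell by 0.95 in WT_RL (SE 0.26, limma adjusted p = 0.022) and *Dcn* fell by 0.82 in KO_RL (SE 0.28, limma adjusted p = 0.0463). The list medians were -0.18 in WT_OL, -0.48 in WT_RL, -0.27 in KO_OL and -0.13 in KO_RL, and the summed levels were 214 to 263 CPM in untrained mice and 131 to 247 CPM in trained mice. Striatal markers summed to 89.7 to 574 CPM over all mice, and none was called. The part of these tissues and of the ventral hippocampus in the levels of the 9 genes was not tested.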

How the data were processed

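Paired-end sequencing of poly(A) RNA from the hippocampus gave 18 libraries, 3 per group, which were assigned to groups by their labels. The authors used STAR v2.5.1 for alignment to mm10 and for counts per gene and edgeR v3.12.1 for TMM normalization, and deposited log2 values for 15329 genes. The study's methods describe CPM floored at 1, but the values are log2(CPM + 1): back on the linear scale and less 1, 100% of them are whole multiples of the CPM of 1 read of the library (within 0.05 reads). Reads and CPM were recovered in this way, and fold changes are on the log2(CPM + 1) scale, which understates changes of low genes such as *Tdo2*. Depth was 29248557 to 37915576 reads on listed genes, and errors are given over the libraries of a group.

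The values were fitted with limma 3.58.1 in R 4.3.3, with 1 mean per group over 18 libraries and eBayes with a variance trend, two-sided, and p-values were adjusted by Benjamini-Hochberg over all genes, after tests on simulated data. Comparisons were the 9 pairs of groups within a genotype or a stage, 3 differences between genotypes and 2 contrasts with genotypes averaged, which were added after the data were seen. No gene was filtered out. Correlations used permutations (exact over 46656 orders within groups, 100000 pooled). GC content, length and positions came from GENCODE M21 on GRCm38, the same build as mm10, with GC content for 99.3% of genes. Promoters came from RefSeq on GRCm38.p6, with an entry for 7 of 9 members, and *Calb1* and *Pou3f1* had none in the table.

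The named genes are the 9 members, the 3 genes most correlated with each member, up to 3 called genes of a marker list by size of change, and *Ccny*. The marker lists hold 145 genes in all. The members, lists and tests were chosen with earlier results of these data known. Replicate numbers did not pair mice and were used as a block in an alternative alone.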

Additional observations from a re-analysis of the deposited data

How the results depend on the processing

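The main limits are 3 mice per group, a GC trend that separates trained from untrained mice, and the wide spread of WT_OL, where results changed with replicate 2 or replicate 3 left out. The 3 calls in KO_OL and the 3 in KO_RL stayed under 6 settings (another pseudocount, low genes left out, median centring, voom, a fit of the compared groups, no variance trend), and the number called was 0 in both with GC correction, with or without a replicate block. CPM floored at 1 or quantile normalization left 2 in each, and the share of all genes called under these 2 settings is not given. With library weights, estimated gene by gene after the data were seen, members called were 4 in WT_OL and 2 in WT_RL against WT_OL, 7 in KO_RL, 4 in KO_OL against WT_OL and 2 in the genotype difference for original learning, where 32.8%, 4.46%, 46.7%, 29.0% and 15.8% of all genes were called. A fit of the compared groups alone called 2 in WT_RL against WT_Basal, where 9.94% of all genes were called. Over all genes, GC correction took the calls from 1457 to 343 in WT_OL, from 2407 to 1179 in WT_RL and from 3600 to 2324 in KO_OL. The causes were not tested.

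Leaving out 1 library at a time gave 0 to 2 called members in WT_OL, 0 to 2 in KO_OL and 0 to 2 in KO_RL against untrained mice. The shares of all genes called in these fits were 4.10% to 16.3%, 14.5% to 19.1% and 13.6% to 21.0%. Members called were 0 to 4 in WT_RL against WT_OL (0 to 13.3% of all genes) and 0 to 3 in KO_OL against WT_OL (0 to 16.5%). The genotype difference for original learning had 0 to 1 (0 to 5.92%). So the share of all genes called moved in these fits as well. *Calb1* after reversal learning with genotypes averaged turned from -0.29 to 0.079 with GC correction, with or without the replicate block. The mean balance of WT_Basal became -0.053 without *Tdo2* in the score, and no other mean moved by more than its SD.

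Same-numbered mice did not deviate together: the correlations of their deviations lay between -0.69 and 0.68 (median 0.01, against 0.03 for other numbers), and 7 of 18 libraries correlated best with their own number. With the replicate block 3 of 9 members were called in KO_OL, where 3620 of 15329 genes were, and 2 in KO_RL, where 3608 genes were. The other comparisons of 2 groups had 0 members called, with 1377 genes called in WT_OL and 2369 in WT_RL against untrained mice. *Fibcd1* in KO_RL had 0.68 (limma adjusted p = 0.0525). With the block and GC correction together, *Dsp* and *Prox1* were called after reversal learning with genotypes averaged, 2 members. No share over all genes is given for that fit.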
